A study of Homo sapiens with 9 samples.

Results

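The 10 genes described here are the core pluripotency factors POU5F1 (OCT4), SOX2, NANOG, PRDM14, SALL4, ZFP42 (REX1), UTF1, DPPA4, LIN28A and LIN28B, picked by gene symbol from a table of 56307 genes with an identifier. Each symbol matched 1 entry, and all 10 passed the filter on low counts. They were measured by RNA sequencing in HNES1 cells, an established human pluripotent stem cell line of embryonic origin, wild type in genotype and grown in the naive state on mouse feeder cells. Cells replated on Geltrex received compound or vehicle a day ahead of leaving naive medium (day 0), and then stayed in basal medium with the tankyrase inhibitor XAV939 and compound, both renewed daily, up to harvest on day 5. The groups were UNC6852 at 2.5 µM (PROTAC), a degrader of the EED subunit of Polycomb repressive complex 2 (PRC2), UNC1999 at 1 µM (UNC), a catalytic inhibitor of its EZH1 and EZH2 subunits, and DMSO, the solvent, with 3 libraries each from repeats that the design text calls independent. Libraries held 31648689 to 101073148 counts, and the 10 genes took 0.503% to 0.562% of them.

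POU5F1 binds DNA as a partner of SOX2, and the pair, with NANOG, drives its own genes and much of the pluripotent programme. PRDM14, SALL4, ZFP42 and UTF1 are further nuclear factors of that network, DPPA4 is a chromatin protein of early embryos, and LIN28A and LIN28B are RNA-binding proteins that block maturation of the let-7 microRNAs. PRC2 writes the repressive mark H3K27me3, and in pluripotent cells it sits mostly at silent developmental genes, whereas genes of the core network are active.

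The octamer bound by POU5F1 was looked for in the proximal promoters, here 250 bases before to 50 after a RefSeq start (GRCh38.p14), of which the sequence table used here holds 7 for 6 of the 10 genes (SOX2, NANOG, ZFP42, UTF1, DPPA4 and LIN28B, the last with 2 starts). The 2 promoters printed are those of the 2 partner genes of POU5F1, and they are the ones with an octamer core (TTTGCAT, both strands). Capitals mark that core on the reverse strand of the SOX2 promoter, starting 100 bases upstream of the start (chr3:181711675-181711974, plus strand), and in the NANOG promoter (chr12:7789152-7789451, plus strand) the core joined to a SOX site (TTTGCAT, any base, then ACAA), starting 120 bases upstream.
SOX2: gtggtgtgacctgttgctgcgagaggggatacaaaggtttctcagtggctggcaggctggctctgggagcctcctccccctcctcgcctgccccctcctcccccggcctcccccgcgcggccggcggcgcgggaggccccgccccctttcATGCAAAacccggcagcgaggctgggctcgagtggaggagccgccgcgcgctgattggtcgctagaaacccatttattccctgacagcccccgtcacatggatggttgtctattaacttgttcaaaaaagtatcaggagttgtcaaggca
NANOG: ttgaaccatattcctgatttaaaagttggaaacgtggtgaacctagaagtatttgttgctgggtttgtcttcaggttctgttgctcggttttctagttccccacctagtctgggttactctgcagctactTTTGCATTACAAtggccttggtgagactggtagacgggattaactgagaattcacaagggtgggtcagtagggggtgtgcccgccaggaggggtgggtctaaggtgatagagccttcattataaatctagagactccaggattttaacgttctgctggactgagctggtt
The core, a stretch of 7 bases, was in 4.46% of 35116 promoters of that length, and the joined motif, which contains the core, in 11 of them (0.0313%). The full octamer ATGCAAAT was in 1.77% of all promoters and in 0 of the 7. Among shorter motifs, on either strand, ACAAAG (SOX core; 16.1% of all promoters) was in those of SOX2, ZFP42 and LIN28B, ACAAT (27.4%; in NANOG it overlaps the joined motif) in those of DPPA4, LIN28B and NANOG, and the GC box GGGCGG (44.95%) in those of DPPA4, SOX2, ZFP42, LIN28B and UTF1. The SOX2 promoter held 20 CpG dinucleotides and that of NANOG 5, against a median of 14 over all promoters. UTF1 held 39, ZFP42 24, DPPA4 5 and the 2 starts of LIN28B 37 and 8. A match of letters describes these windows only.

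All 10 genes were well expressed, so that these defining markers of the labelled cell type were present in every library. Their CPM (counts scaled to library size after TMM normalization) ran from 67.5 for PRDM14 in DMSO replicate 2 to 1983 for LIN28A in UNC replicate 2. Levels can be compared between genes only per length, taken here as CPM per kb of annotated exon. In DMSO the order was LIN28A (390 ± 31.4), POU5F1 (251 ± 15.7), DPPA4 (209 ± 11.04), UTF1 (191 ± 5.84), ZFP42 (105 ± 4.802), NANOG (83.9 ± 2.25), LIN28B (63.6 ± 4.64), SALL4 (45.4 ± 1.18), SOX2 (39.4 ± 2.34) and PRDM14 (33.1 ± 5.198; SD, n = 3). SOX2 (36.8 to 41.4 CPM per kb) and PRDM14 (27.6 to 37.96) overlapped in DMSO, and no other neighbours in that order did. In PROTAC libraries SOX2 (41.8 to 53.2) overlapped SALL4 (41.6 to 50.05) and UTF1 (187 to 211) overlapped DPPA4 (205 to 222), and in UNC libraries SOX2 (41.9 to 51.9) overlapped both SALL4 (41.7 to 48.4) and PRDM14 (34.3 to 46.4), and POU5F1 (234 to 269.5) touched DPPA4 (212 to 235). With the length of the longest coding transcript in place of all exons, DPPA4 (370.1) passed POU5F1 (320 in DMSO) and the other ranks held.

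**Figure D1:**
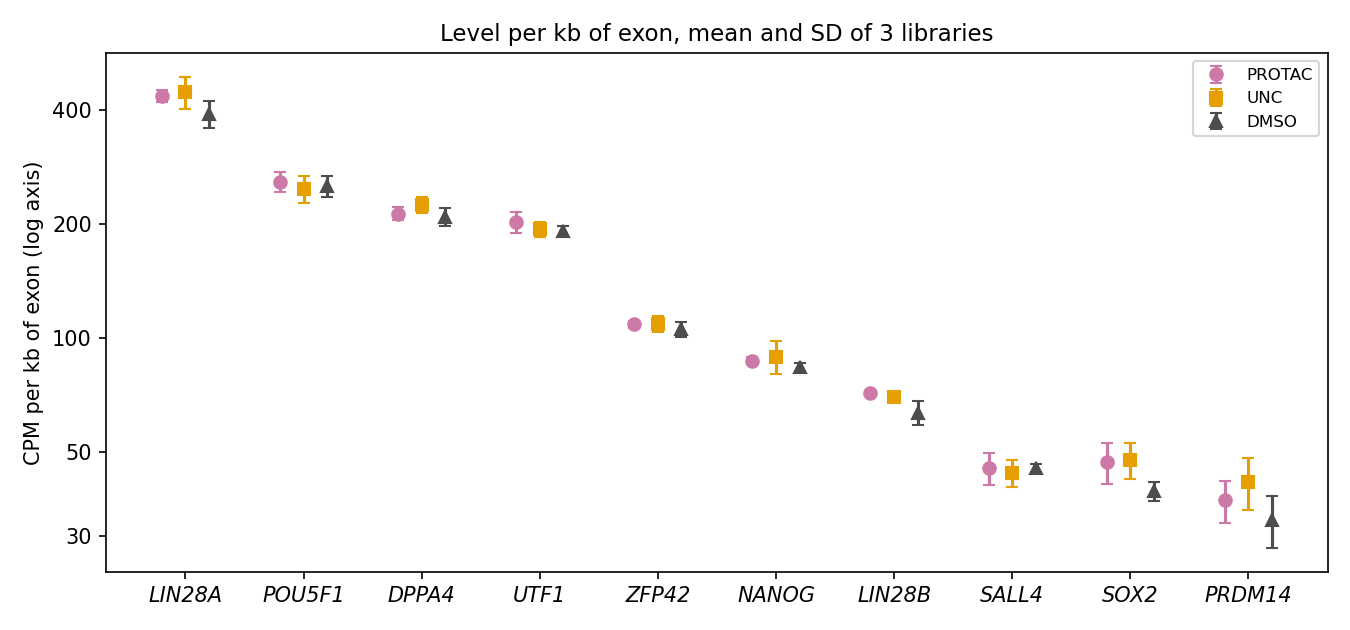
Level of each gene in CPM per kb of exon on a log axis, as the mean (marker) and SD (bar) of 3 libraries for PROTAC, UNC and DMSO. LIN28A is at the top with 390 in DMSO and PRDM14 at the bottom with 33.1.

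Of the 10 genes, 0 were called in either comparison with DMSO by group alone at a false discovery rate of 0.05 in edgeR, where 0% of the 24182 genes tested were called for PROTAC and 0.72% for UNC (0.318% higher, 0.401% lower). At an unadjusted p under 0.05 there were 2 for PROTAC (SOX2 and LIN28B) and 2 for UNC (SOX2 and PRDM14). Such unadjusted counts, here and below, are given without the share of all genes at that level, so no excess can be read from them. DESeq2 and limma-voom by group alone also called 0 of the 10. The labels do not say that a replicate number marks a shared repeat. In these data, deviations from the group mean correlated at 0.106 to 0.472 between libraries of the same number. Between unlike numbers the range was -0.324 to 0.0748. A paired fit with the number as a block was therefore read beside the fit by group alone, and pairs below are libraries of the same number. The choice of that block rests on these same data. In the paired fit SOX2 rose in PROTAC, and SOX2, PRDM14 and LIN28A rose in UNC, where 3.02% of all genes were called for PROTAC (2.03% higher, 0.988% lower) and 13.5% for UNC (7.05% higher, 6.46% lower). No factor fell in either fit. The median log2 fold change of the 10 genes by group alone was 0.07 in PROTAC and 0.096 in UNC. Over all genes tested it was -0.01 in each comparison. By mean CPM the 10 ranked above 89.8% to 99.9% of genes tested, and genes of like level were not compared. The 14 naive markers read below had medians of 0.118 in PROTAC and 0.029 in UNC, and the 13 formative and primed markers 0.032 and -0.050. Both comparisons use the same DMSO libraries. In bulk RNA fewer cells of a type and less RNA per cell cannot be told apart.

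SOX2, the HMG-box partner of POU5F1, is a gene of 1 exon on chromosome 3 (chr3:181711925-181714436, plus strand, GRCh38). It had 134, 105 and 116 CPM in PROTAC replicates 1 to 3 and 124, 105 and 130.5 CPM in UNC, against 101, 92.6 and 104 CPM in DMSO. Each treated library lay above every DMSO library, and replicate 2 was lowest in all 3 groups. In the paired fit SOX2 rose in PROTAC by a log2 fold change of 0.25 (SE 0.0547, edgeR adjusted p = 0.00654, higher in 3 of 3 pairs), a 19.1% increase with a 95% interval of 10.2% to 28.6%. In UNC it rose by 0.27 (SE 0.0546, adjusted p = 0.000481, 3 of 3 pairs), or 20.9% (12% to 30.6%). By group alone the values were 0.25 (adjusted p = 0.987) and 0.28 (adjusted p = 0.248). The call in PROTAC was lost in the paired fit without replicate 1 (0.17, edgeR adjusted p = 0.102) and without replicate 2 (0.28, adjusted p = 0.0946), whereas that in UNC held without each number in turn. Over all genes these 2 fits called 393 higher and 250 lower, and 87 and 52, in PROTAC, against 491 and 239 in the full paired fit.

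SOX2 lies inside SOX2-OT, a long non-coding transcript read from the same strand. SOX2-OT had 2.64, 2.32 and 2.84 CPM in PROTAC and 3.06, 2.65 and 2.90 CPM in UNC, against 1.74, 1.96 and 1.86 CPM in DMSO. Each treated library again lay above every DMSO library, while the compounds overlapped. The counts of SOX2-OT were 2.16% of those of SOX2 over all libraries. It rose in UNC in the paired fit (log2 fold change 0.62, SE 0.153, edgeR adjusted p = 0.00409; by group alone adjusted p = 0.0985) and was not called in PROTAC (0.47, adjusted p = 0.0930). Whether the counting could separate the pair is not given in the sources used here.

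PRDM14, a zinc-finger regulator that in mouse cells represses DNA methyltransferase genes and works with PRC2, lies on chromosome 8 (chr8:70051651-70071693, minus strand). It had 97.4, 77.6 and 98.3 CPM in PROTAC and 109, 83.7 and 113 CPM in UNC, against 82.3, 67.5 and 92.7 CPM in DMSO. The groups overlapped, since replicate 2 was far below the others in each, but within every replicate number the order was UNC, PROTAC, DMSO from high to low. In the paired fit PRDM14 rose in UNC by 0.34 on the log2 scale (SE 0.0516, edgeR adjusted p = 1.13e-05, 3 of 3 pairs), or 26.3% (95% interval 17.5% to 35.8%). By group alone the value was 0.34 as well, with an adjusted p of 0.329 and an SE of 0.138. In PROTAC the paired value was 0.18 (SE 0.0517) with an adjusted p of 0.0502, just outside the threshold, and an interval of 5.15% to 21.6%. The call in UNC held in the paired fit without each replicate number.

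LIN28A and LIN28B, the paired let-7 antagonists, were both higher in every treated library than in the DMSO library of the same number. LIN28A (chr1:26410817-26429728, plus strand) had 1755, 1803 and 1678 CPM in PROTAC and 1711, 1983 and 1656 CPM in UNC, against 1500.1, 1707 and 1480.1 CPM in DMSO, and DMSO replicate 2 reached into the range of both treated groups. With pairing its rise in UNC was 0.19 (SE 0.0552, edgeR adjusted p = 0.0173), or 14.03% (5.52% to 23.2%), and was not called in PROTAC (0.16, adjusted p = 0.103). The UNC call was lost without replicate 2 (0.18, edgeR adjusted p = 0.159) and without replicate 3 (0.21, adjusted p = 0.0799). Over all genes those fits called 607 higher and 557 lower, and 1030 and 922, in UNC, against 1705 and 1561 in the full paired fit. LIN28B (chr6:104936616-105083332, plus strand) had 429, 423 and 435 CPM in PROTAC and 417, 426 and 414 CPM in UNC, against 356, 411 and 378 CPM in DMSO. Its treated libraries lay within a narrow band above all DMSO libraries, and it was called in neither comparison (paired log2 fold change 0.17 with adjusted p = 0.0609 in PROTAC, 0.14 with adjusted p = 0.0780 in UNC, edgeR). SOX2 and LIN28B were thus 2 of 10 genes without overlap in each comparison, both with the treated libraries above; 11.5% of all genes had no overlap for PROTAC (6.07% higher, 5.44% lower) and 17.4% for UNC (8.34% higher, 9.07% lower).

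**Figure D2:**
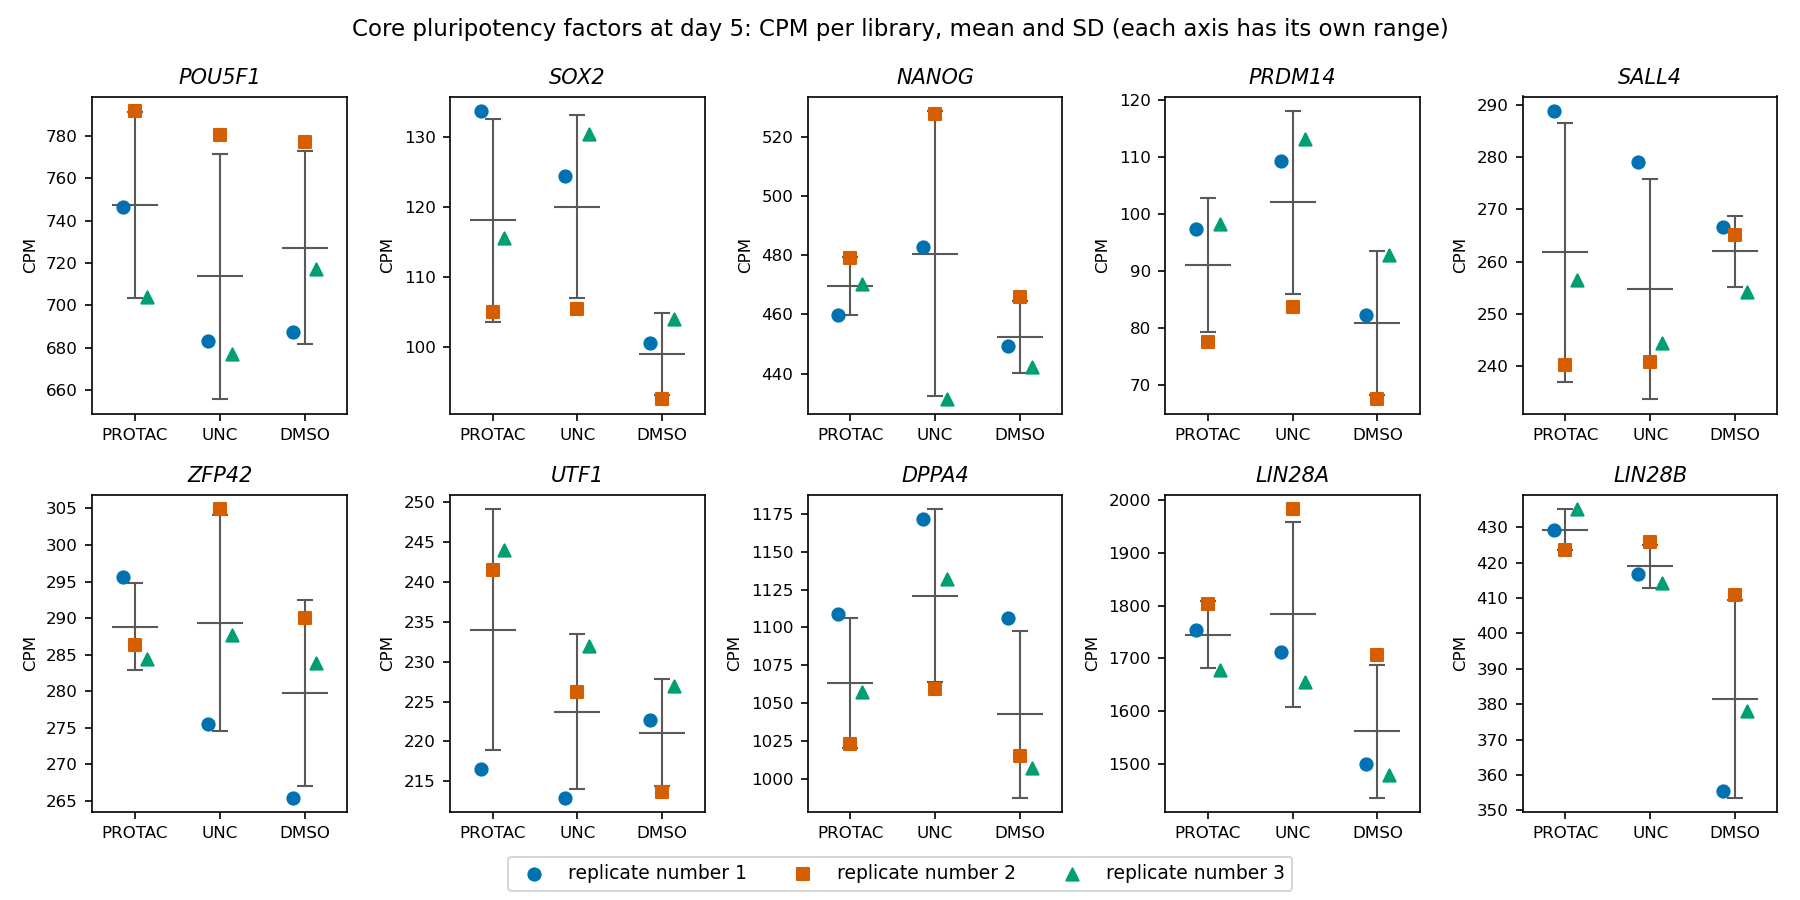
CPM of each gene in PROTAC, UNC and DMSO libraries, with the colour and shape of a point giving its replicate number and the bars the mean and SD (n = 3); each axis has its own range and does not start at 0. SOX2 and LIN28B are the genes whose treated libraries all lie above those of DMSO, and in PRDM14 replicate 2 is lowest in every group.

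POU5F1, NANOG, SALL4, ZFP42, UTF1 and DPPA4 were called in no comparison with DMSO in either fit. POU5F1, the POU-domain factor, had 746, 792 and 704 CPM in PROTAC and 683, 781 and 677 CPM in UNC, against 687, 777 and 717 CPM in DMSO. Replicate 2 was highest in each group and the groups overlapped throughout. Its paired change was 2.81% in PROTAC (95% interval -4.45% to 10.6%) and -1.95% in UNC (-8.88% to 5.49%), so that a change of the size seen for SOX2 in UNC, 20.9%, lies outside both intervals. By group alone the intervals were wider, -9.12% to 16.2% in PROTAC and -13.2% to 10.97% in UNC.

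NANOG, the homeobox factor of the core, had 459.6, 479 and 470.2 CPM in PROTAC and 483, 528 and 431 CPM in UNC, against 449, 466 and 442 CPM in DMSO. UNC held both its highest and its lowest library. The paired intervals were -3.66% to 11.95% in PROTAC and -1.67% to 14.3% in UNC. SALL4, a zinc-finger factor that binds AT-rich DNA, had 289, 240.1 and 256 CPM in PROTAC and 279, 241 and 244 CPM in UNC, against 267, 265 and 254 CPM in DMSO. Treated replicates 2 were the lowest libraries and treated replicates 1 the highest, with DMSO in between, and the intervals were -7.45% to 7.18% and -9.89% to 4.34%.

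ZFP42, a zinc-finger protein long used as a marker of undifferentiated cells, had 296, 286 and 284 CPM in PROTAC and 276, 305 and 288 CPM in UNC, against 265, 290.0 and 284 CPM in DMSO. UTF1, a chromatin-bound factor, had 217, 241 and 244 CPM in PROTAC and 213, 226 and 232 CPM in UNC, against 223, 214 and 227 CPM in DMSO. DPPA4, which in mouse acts with DPPA2 at bivalent promoters, had 1109, 1023 and 1057 CPM in PROTAC and 1172, 1059 and 1132 CPM in UNC, against 1106, 1015 and 1007 CPM in DMSO. All 3 overlapped between groups. Their paired changes with 95% intervals were 3.37% (-3.80% to 11.1%), 5.67% (-1.63% to 13.5%) and 1.98% (-5.28% to 9.81%) in PROTAC. In UNC they were 3.40% (-3.76% to 11.1%), 1.09% (-5.89% to 8.59%) and 7.51% (-0.144% to 15.8%).

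Between the compounds, which differ in dose as well as in target, 0 of the 10 genes were called by group alone (0.00827% of all genes, and 0 of the 10 at an unadjusted p under 0.05) or in the paired fit (2.9% of all genes, 2.16% higher and 0.74% lower, and 1 of the 10, PRDM14, at an unadjusted p under 0.05). DESeq2 and limma-voom also called 0. In 0 of the 10 were the libraries of the compounds apart, where 9.08% of all genes had no overlap (5.15% higher, 3.93% lower). PRDM14 had the largest of the 10 log2 fold changes in either fit, with 91.1 ± 11.7 CPM in PROTAC and 102 ± 16.1 CPM in UNC (SD, n = 3). It was lower in PROTAC in 3 of 3 pairs, with a paired log2 fold change of -0.16 (SE 0.0515, edgeR adjusted p = 0.0946; 95% interval -16.7% to -3.75%). For SOX2 the interval was -8.83% to 6.29%, for LIN28A -9.16% to 6.08% and for LIN28B -4.77% to 10.3%.

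**Figure D3:**
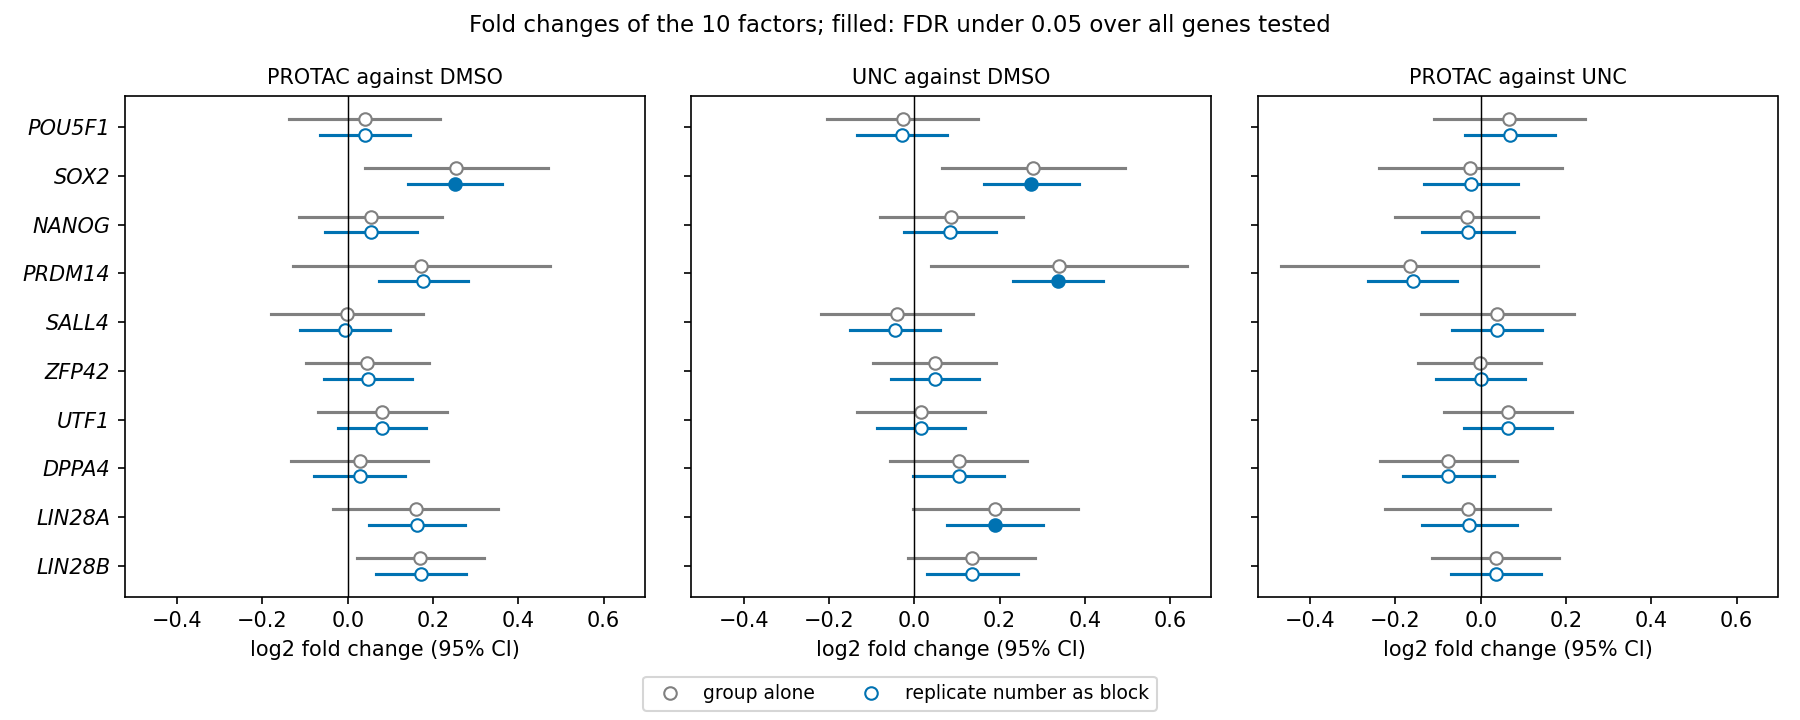
Log2 fold change of each gene with its 95% confidence interval for PROTAC against DMSO, UNC against DMSO and PROTAC against UNC, by group alone (grey) and with the replicate number as a block (blue); filled points passed a false discovery rate of 0.05 over all genes. SOX2 is filled in both comparisons with DMSO, PRDM14 and LIN28A in UNC against DMSO, all in the paired fit.

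For PRDM14 and SOX2 the differences between replicate numbers were of about the size of those between treatments. In the same paired fit, libraries of number 2 against those of number 1 differed for 5 of the 10 genes, where 28.6% of all genes did. PRDM14 (log2 fold change -0.33, SE 0.0515, edgeR adjusted p = 6.37e-06), SOX2 (-0.24) and SALL4 (-0.16) were lower in number 2, and POU5F1 (0.15) and LIN28A (0.15) were higher. Number 3 against number 2 differed for 4 of the 10 (8.7% of all genes), with PRDM14 0.41 and SOX2 0.21 higher and POU5F1 -0.16 and LIN28A -0.19 lower. Number 3 against number 1 differed for 0 of the 10 in edgeR (16.4% of all genes). Over the 9 libraries PRDM14 spanned 0.75 on the log2 scale, from DMSO replicate 2 to UNC replicate 3. SOX2 spanned 0.53, from DMSO replicate 2 to PROTAC replicate 1, while UTF1 and ZFP42 spanned 0.20 each. The spans of PRDM14 and SOX2 thus hold differences of treatment as well as of replicate number.

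**Figure D4:**
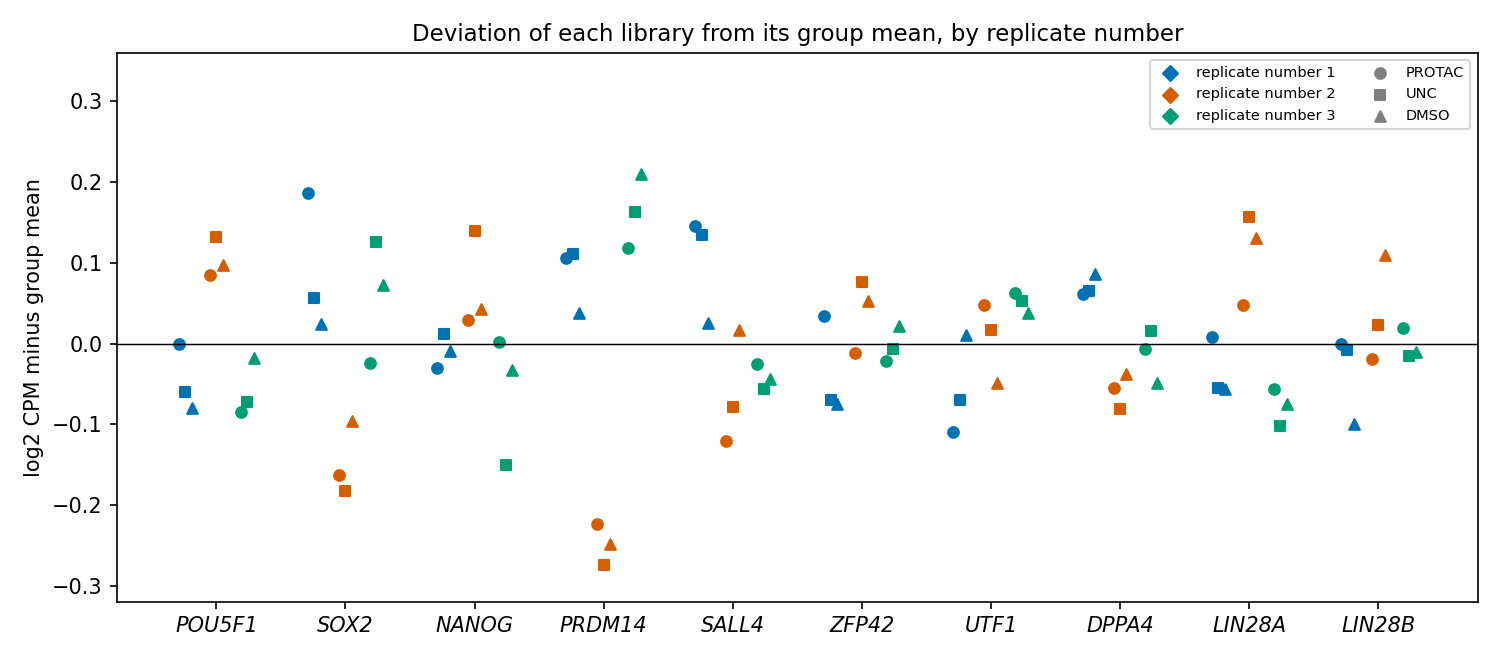
Log2 CPM of each library minus the mean of its group, with colour for the replicate number and shape for the group. PRDM14 and SOX2 are below their group means in all 3 libraries of number 2, and POU5F1 and LIN28A are above theirs.

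Reads from near-identical copies limit the values of NANOG and POU5F1. NANOGP8, a retrocopy on chromosome 15, matches 99.5% of the 915 coding bases of NANOG and had 71.7 ± 2.26 CPM in PROTAC, 75.3 ± 4.63 in UNC and 70.9 ± 2.74 in DMSO (SD, n = 3). Its counts were 14.6% to 16.7% of those of NANOG in every library. POU5F1B matches 97.6% of the 1080 coding bases of POU5F1, had 45.4 ± 1.16, 46.4 ± 6.04 and 46.4 ± 2.84 CPM in PROTAC, UNC and DMSO, and was at 5.78% to 7.51% of POU5F1. Neither copy was called against DMSO in either fit, and how the counting placed reads that match both places is not given in the sources used here. TCF19, which overlaps POU5F1 on the opposite strand, had 1.01% of its counts, and an unnamed entry inside LIN28B 0.451%.

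The wider network moved in both directions in UNC. Of 36 partners and targets of the core factors, all tested, 1 rose by group alone in UNC (0.318% of all genes higher) and 35 were not called. It was FGF4, a growth factor gene with a SOX2 and POU5F1 enhancer, singled out after its values were seen. FGF4 had 204, 188 and 204 CPM in PROTAC and 241, 228 and 243 CPM in UNC, against 160.4, 162 and 167 CPM in DMSO. The 3 groups did not overlap. In UNC it rose by 0.54 (SE 0.0638, edgeR adjusted p = 0.00363), and in PROTAC in the paired fit by 0.28 (adjusted p = 0.000592).

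In the paired fit 9 of the 36 rose, 7 fell and 20 were not called in UNC, against 7.05% higher and 6.46% lower of all genes. The largest by group alone were SOX3, a close relative of SOX2 (0.806 ± 0.210 CPM in UNC and 1.35 ± 0.0961 CPM in DMSO; paired log2 fold change -0.76), and SALL3, a paralog of SALL4 (21.8 ± 4.93 and 33.1 ± 5.38 CPM; -0.61). HESX1, a homeobox repressor (3.81 ± 0.637 and 2.59 ± 0.173 CPM; 0.55), and LEFTY2, a NODAL antagonist (4.49 ± 0.184 and 3.08 ± 0.698 CPM; 0.55; SD, n = 3), rose. The median of the list by group alone was 0.03. In PROTAC 2 of the 36 rose and 2 fell in the paired fit, against 2.03% higher and 0.988% lower of all genes, namely FGF4 and the neuropeptide gene GAL (0.196) up and SALL3 (-0.32) and VRTN (-0.34), tied to vertebra number in pigs, down. By group alone 0 of the 36 were called in PROTAC by edgeR, with 3 at an unadjusted p under 0.05. The compounds differed in the paired fit for 9 of the 36, with 7 higher in PROTAC and 2 lower, where 2.16% of all genes were higher and 0.74% lower. By group alone 0 of the 36 were called between the compounds by edgeR, with 6 at an unadjusted p under 0.05. The leading ones in the paired fit were MYC and NR6A1. MYC, the growth regulator, had 48.3 ± 8.70 CPM in PROTAC and 34.5 ± 6.99 CPM in UNC (paired log2 fold change 0.50, edgeR adjusted p = 3.26e-06). NR6A1, a nuclear receptor that represses POU5F1 in mouse, had 47.1 ± 3.56 and 65.6 ± 8.28 CPM (-0.47, adjusted p = 2.18e-06, same fit, SD, n = 3). SALL3 (0.29) and FGF4 (-0.26) also differed in that fit.

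Genes around LIN28 and let-7 gave few calls. Of 16 genes of let-7 processing and its targets, 2 rose, 1 fell and 13 were not called in UNC in the paired fit, where 7.05% of all genes were higher and 6.46% lower. By group alone 0 of the 16 were called in UNC by edgeR, with 3 at an unadjusted p under 0.05. In the paired fit IGF2BP3, an RNA-binding let-7 target, rose by 0.31 (125 to 140 CPM in UNC, 95.9 to 112 CPM in DMSO). TRIM71, a let-7 target and RNA-binding ubiquitin ligase, rose by 0.198 in that fit. DGCR8, a partner of DROSHA in microRNA processing, fell by 0.22 in the same fit (35.3 to 44.97 CPM in UNC, 42.7 to 51.8 CPM in DMSO). Between the compounds HMGA2, a classic let-7 target, was higher in PROTAC by 0.24 in the paired fit (edgeR adjusted p = 0.0414; 2.16% of all genes higher, 0.74% lower) and the other 15 were not called, nor was any of the 16 by group alone (1 at an unadjusted p under 0.05). In PROTAC 0 of the 16 were called in either fit by edgeR, with 3 at an unadjusted p under 0.05 in the paired fit and 1 by group alone. Mature let-7 was not measured.

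Lists of markers of other states were read for each library. Summed naive markers (14 genes, led by NLRP7) were at 4013 to 4169 CPM in PROTAC, 3556 to 4232 in UNC and 3605 to 4049 in DMSO. Formative and primed markers (13 genes, led by ETV4 with a mean of 276 CPM) were at 1059.5 to 1221, 1038 to 1159 and 1069 to 1115 CPM. Such sums do not stand for each gene. Among the 13, CDH2 was under 1 CPM in every library and DUSP6 was at 2.62 to 5.01 CPM. In the paired fit 3 of the 14 naive markers rose and 2 fell in PROTAC, and 3 rose and 2 fell in UNC, while of the 13 formative and primed markers 2 rose and 1 fell in PROTAC and 3 rose and 4 fell in UNC. All genes gave 2.03% higher and 0.988% lower in PROTAC, and 7.05% higher and 6.46% lower in UNC. By group alone 0 of either list were called in PROTAC by edgeR, with 4 naive and 2 primed markers at an unadjusted p under 0.05. In UNC by group alone 1 naive marker rose, and 1 primed marker rose and 1 fell. Over all genes tested, 0% were called in PROTAC by group alone, and 0.318% were higher and 0.401% lower in UNC. Those shares also go with the counts by group alone of the lists below, where the shares printed are of the paired fit. Trophoblast markers (12 genes, led by CGA) summed to 16.1 to 47.4 CPM in PROTAC, 11.03 to 29.7 in UNC and 20.7 to 51.96 in DMSO. The lowest library in each group was number 1 and the highest number 2. CGA alone had 1.67, 24.6 and 14.3 CPM in PROTAC replicates 1 to 3, 1.55, 12.6 and 3.61 in UNC, and 4.23, 22.5 and 15.9 in DMSO. Of the 9 trophoblast markers tested 2 fell in the paired fit in PROTAC (0.988% of all genes lower) and 6 in UNC (6.46% lower), against 0 and 1 by group alone. Amnion markers (7 genes) summed to 28.3 to 37.5, 21.9 to 27.3 and 30.7 to 35.8 CPM, endoderm markers (7) to 8.97 to 11.7, 10.9 to 15.4 and 7.89 to 12.6, and mesoderm markers (7) to 11.1 to 14.4, 8.85 to 9.81 and 14.3 to 16.8. In UNC 3 of 6 tested amnion markers and 3 of 5 mesoderm markers fell in the paired fit, where 6.46% of all genes did, against 2 and 1 by group alone. In PROTAC 0 of either list were called by edgeR in either fit, with 1 amnion and 2 mesoderm markers at an unadjusted p under 0.05 in the paired fit and 0 and 2 by group alone. Of 4 endoderm markers tested 1 rose in the paired fit in PROTAC (2.03% of all genes higher) and 1 in UNC (7.05% higher), against 0 and 1 by group alone. Neural markers (7 genes, nearly all of it NES) summed to 452 to 485, 400.3 to 452 and 410.2 to 442 CPM. Of the 6 tested 1 rose in the paired fit in PROTAC (2.03% of all genes higher) and 1 in UNC (7.05% higher), against 0 and 1 by group alone. No marker in these lists was at 0 in all libraries, but many were near the floor. Under 1 CPM in every library were 5 of the 12 trophoblast, 1 of the 7 amnion, 4 of the 7 endoderm, 2 of the 7 mesoderm and 4 of the 7 neural markers. The part of cells of these other states in the changes of the 10 genes was not tested.

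Over the 9 libraries the patterns closest to those of PRDM14, SOX2, POU5F1 and NANOG were sought, by the root mean square difference of centred log2 CPM. For each, 10056 genes with a mean of at least 10 CPM were compared, leaving out the 10 factors. For PRDM14 they were FZD6 (0.0559), TENM3 (0.0569) and WDR44 (0.0682), against a median of 0.247 over the genes compared. For SOX2 they were ADGRL2 (0.0686), NHSL1 (0.0697) and BAZ1A (0.0721; median 0.197). For POU5F1, which varied little, they were INKA2 (0.0218), KIAA1671 (0.0291) and UQCRH (0.0324), and for NANOG they were MTF2 (0.02797), RCHY1 (0.0329) and OGA (0.0329), both against a median of 0.131. The smallest of so many distances lie below the median by selection, so the medians give only a scale. These distances include the effect of replicate number.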

How the data were processed

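Per the labels' protocols, RNA was freed of DNA and libraries were made with a kit that depletes ribosomal RNA, although the molecule field reads polyA. Trim Galore 0.6.10, HISAT2 2.2.1 and GRCh38 are named in the submitters' processing notes. Which tool counted reads, over which annotation and with what strandedness, is not given in the sources used here. Raw read counts per gene were deposited by the authors in 56312 entries, of which 5 without identifier (0.00893% of counts) were left out.

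Groups and replicate numbers came from the titles, and the design text states 3 independent repeats. Counts were analysed with edgeR 4.0.16 (R 4.3.3): TMM scaling, expression filter by group (24182 genes), robust quasi-likelihood fit of all 9 libraries, two-sided tests and Benjamini-Hochberg adjustment over all genes tested at 0.05. Every adjusted p of a gene is from this test. The standard error is the log2 fold change over the root of F, and intervals use it with the moderated degrees of freedom. The paired fit adds the replicate number as a block, since the 9 correlations of deviations between libraries of the same number were 0.106 to 0.472, all above 0.1; the labels do not say that a number marks a shared repeat. Log2 CPM used a prior count of 2. Scripts were tested on simulated data, with changes set in UNC only and no effect of replicate number.

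Exon lengths, and coding sequences for the copies, are from GENCODE 29 (GRCh38), promoters from RefSeq. All 10 genes were named in every comparison, and up to 4 called genes per further list by largest change. Up to 3 nearest patterns were named for each of SOX2, PRDM14, POU5F1 and NANOG. Members and lists were chosen with earlier results of these data known. DESeq2 1.42.0, limma-voom (limma 3.58.1), other scalings and filters, and fits without each library were alternatives.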

Additional observations from a re-analysis of the deposited data

How the results depend on the processing

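Of 870 values for the 10 genes over 29 alternative settings, 786 kept direction and side of the threshold, 34 kept direction and passed it, and 50 changed sign, all of them small and not called. By group alone the counts of factors called against DMSO stayed at 0 under every scaling, filter, tool and left-out library, except that without a filter on low counts PRDM14 was called in UNC (1). That fit called 356 genes higher and 476 lower in UNC, of 39367 tested. DESeq2 by group alone called 408 genes higher and 394 lower in UNC, with 0 factors among them. All other calls of factors came with the replicate block. With it 1 factor was called in PROTAC under TMM, upper quartile scaling and library size only, 2 under RLE scaling (PRDM14 added, adjusted p = 0.0458) and 4 in DESeq2 (SOX2, PRDM14, LIN28A and LIN28B). In UNC it called 3 under all 4 scalings and 4 in DESeq2. Over all genes DESeq2 with the block called 640 higher and 220 lower in PROTAC, and 1840 and 1222 in UNC. With the block and without replicate 1, 2 and 3 in turn, 0, 0 and 1 factors were called in PROTAC and 3, 2 and 2 in UNC. Over all genes these fits called 393 higher and 250 lower, 87 and 52, and 99 and 66 in PROTAC. In UNC they called 1433 and 1353, 607 and 557, and 1030 and 922. Between the compounds 0 factors were called under any setting. The cause was not tested.

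Over all genes, the paired calls in UNC split into 1705 higher and 1561 lower under TMM, 1164 and 1915 by library size only, 1328 and 1801 by upper quartile and 1905 and 1471 by RLE. In PROTAC they were 491 and 239, 274 and 265, 312 and 260, and 531 and 245.

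The log2 fold changes that changed sign were the following. SALL4 in PROTAC was -0.00099 by group alone, 0.00144 under RLE scaling, 0.00146 in DESeq2 and 0.0616 with the block without replicate 2. UTF1 in UNC was 0.017 by group alone, -0.00528 by upper quartile, -0.0151 by library size, -0.0064 and -0.0154 by the same scalings with the block, and -0.0128 with the block without replicate 2. ZFP42 between the compounds was -0.00243, but 0.00567 by library size, 0.00132 in limma-voom, 0.00123 and 0.00597 with the block under upper quartile and library size, and 0.037 with the block without replicate 2. With the block and without replicate 1, POU5F1 was -0.00102 and ZFP42 -0.00877 in PROTAC. Without replicate 3, POU5F1 was 0.00144 in UNC and SOX2 between the compounds 0.043. Without replicate 2, SALL4 in UNC was 0.00892, and NANOG and LIN28A between the compounds 0.0194 and 0.0211.

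By group alone without single libraries or replicate numbers, the ranges in PROTAC were -0.00603 to 0.0903 for POU5F1, -0.0778 to 0.0637 for SALL4, -0.00873 to 0.0766 for ZFP42 and -0.0031 to 0.0733 for DPPA4. In UNC they were -0.0954 to 0.0232 for POU5F1, -0.111 to 0.0113 for SALL4 and -0.0105 to 0.0561 for UTF1. Between the compounds they were -0.124 to 0.0528 for SOX2, -0.114 to 0.0398 for NANOG, -0.0374 to 0.1102 for SALL4, -0.054 to 0.0373 for ZFP42 and -0.0828 to 0.0527 for LIN28A.

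For POU5F1, NANOG, SALL4, ZFP42, UTF1 and DPPA4 the paired 95% intervals against DMSO had lower ends from -9.89% to -0.144% and upper ends from 4.34% to 15.8%. By group alone the intervals were wider, with lower ends from -14.1% to -3.82% and upper ends from 10.04% to 20.2%. The paired intervals rest on the replicate number as a block, which the labels do not state. A 95% interval from 3 libraries a group is not a bound on the change.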

Other observations

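SOX21, a SOX-family repressor known in chick to counteract SOX-family activators, has a symbol that begins like that of SOX2 but is a separate gene on chromosome 13. It had 2.01, 0.994 and 2.43 CPM in PROTAC replicates 1 to 3 and 2.81, 1.40 and 3.86 CPM in UNC, against 1.05, 0.986 and 2.05 CPM in DMSO. Within every replicate number UNC was the highest, and replicate 2 was the lowest library in each group. In the paired fit it rose in UNC by 0.97 (SE 0.181, edgeR adjusted p = 0.00021) and was not called in PROTAC (0.41, adjusted p = 0.262). Its antisense transcript SOX21-AS1, whose reads may not be separable from it, rose in UNC by 0.69 (adjusted p = 0.0225). By group alone neither was called in UNC by edgeR (adjusted p = 0.313 for SOX21 and 0.352 for SOX21-AS1). NANOGNB, a NANOG neighbour gene on chromosome 12, was under 0.4 CPM in every library and was not called.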
